A study of Mus musculus with 208 samples.

Results

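The effect of perinatal morphine on hippocampal neuronal nuclei was examined in adult mice that had all received lipopolysaccharide (LPS), a bacterial cell wall component that sets off systemic inflammation. MOR-LPS animals were exposed to morphine around birth and SAL-LPS animals to saline, and the exposure difference is MOR-LPS minus SAL-LPS throughout. The members were the hippocampal columns of the count table labelled with these groups, without any column whose total was under 50% of the median total of all 55 hippocampal columns (9184251 counts). This left 29 of 30 libraries, 15 MOR-LPS (7 labelled female, 8 male) and 14 SAL-LPS (8 female, 6 male), out of 208 samples in the series. MOR-LPS 12-2, at 22.1% of the median total, was left out, and MOR-LPS 7-1, at 50.5%, was the member just inside the limit. Library names give the litter and then the animal, by the study's own description of its sample names. Its methods count litters differently, so which litter a library belongs to rests on the name alone.

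All mice were wild type C57BL/6NTac. Dams received morphine or saline by minipump, the pups were fostered, and the pups then received morphine at 10 mg/kg or saline by injection from postnatal day 1 to 14. In adulthood, tissue was taken 2 h after LPS or saline. MOR-SAL (11 libraries used) and SAL-SAL (13 libraries used) received saline in place of LPS, and their difference is called the baseline here. Each library held nuclear polyadenylated RNA of about 5000 nuclei sorted for NeuN, a neuronal nuclear protein. The used MOR-LPS and SAL-LPS libraries came from 10 and 8 litters by these names, and no litter held both exposures, so exposure was compared between litters only.

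As background, LPS is sensed by Toll-like receptor 4, mainly on microglia, endothelium and peripheral immune cells, and the cytokines that follow act on neurons through receptors such as gp130. Morphine acts on the mu opioid receptor, a Gi-coupled receptor that lowers neuronal excitability. The hippocampus holds granule cells of the dentate gyrus, pyramidal cells of the CA fields and GABAergic interneurons, and NeuN marks most of them while oligodendrocytes, astrocytes and microglia carry little of it.

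Totals of the used libraries ranged from 4636977 to 24071488 counts in MOR-LPS and from 7021843 to 17631293 in SAL-LPS. Levels are given as CPM, a gene's reads scaled to a common library total with TMM factors (trimmed mean of M-values), and are not corrected for gene length. Summed CPM of 8 pan-neuronal markers were 4474 to 8925 in MOR-LPS and 6607 to 9581 in SAL-LPS, and dentate granule cell markers were 616 to 1363 and 489 to 1263. The sample label and the Y-linked genes disagreed in 2 of the 29 libraries: MOR-LPS 17-1, labelled male, had 0 CPM of them, and SAL-LPS 2-2, labelled female, had 173.9. In the groups given saline in place of LPS, MOR-SAL 7-2 and 17-2 likewise went against their label. MOR-LPS 14-4 and 17-3, labelled male, had 66.2 and 58.2 CPM, against 139.4 to 185.7 in the other 5 male MOR-LPS libraries. Some libraries were more alike than the rest (Pearson r of log2 CPM above 0.98 across 14136 genes, which are not independent replicates): MOR-LPS 15-1 with 16-4, MOR-LPS 13-0, 6-2 and 8-3 among themselves, and SAL-LPS 10-4 with 3-1. Each was kept as the labels give it, as a separate animal. Their counts differed by more than counting error, which alone does not show that they came from separate animals. Markers of the striatum were high in SAL-LPS 1-2, 9-3, 10-4 and 3-1, up to 1688 summed CPM against 466 at most in MOR-LPS. The count of genes called for MOR-LPS against SAL-LPS was repeated without the libraries against the labelled sex, without those of striatal markers and with alike libraries summed. In sorted bulk nuclei, fewer cells of a type and less RNA per cell cannot be told apart.

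A further pair of library sets stood apart, and the main results are given with and without them. MOR-LPS 7-1, 15-3 and 16-2, all female, had the highest oligodendrocyte precursor (47.4 to 164 summed CPM), astrocyte (1156 to 1504) and microglial (96.1 to 290) marker sums of all 53 hippocampal libraries used, where the other 50 reached 20.5, 1101 and 58.0. All 3 lay above every other library at 173 of the 14136 genes with a mean of at least 1 CPM. SAL-LPS 3-3, 5-2 and 11-0, all male and 3 of the 6 male SAL-LPS libraries, lay above the other 50 libraries at 285 genes and below them at 85. Both sets were found in these data after the levels were seen. The plot of summed marker levels shows the first set.

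**Figure D1:**
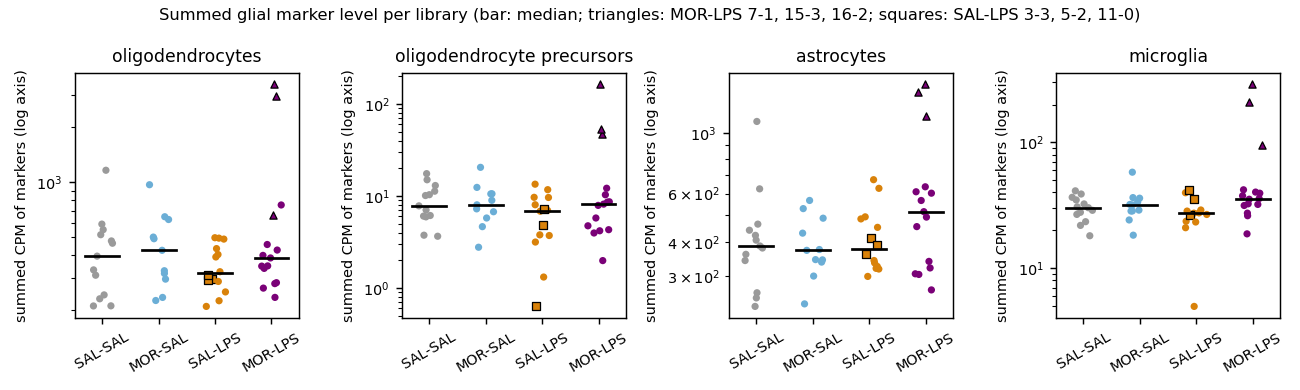
Summed CPM (log axis) of markers of oligodendrocytes, oligodendrocyte precursors, astrocytes and microglia in each hippocampal library, by condition. Each point is a library and each bar the median of its condition. Triangles mark MOR-LPS 7-1, 15-3 and 16-2, which reach 164, 1504 and 290 for precursor, astrocyte and microglial markers, and squares mark SAL-LPS 3-3, 5-2 and 11-0, which lie among the other libraries except that SAL-LPS 5-2 is the lowest for precursor markers, at 0.629.

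In all, 607 of 22069 genes tested were called after LPS (2.75%). Of genes with a mean of at least 1 CPM, 137 of 14136 were called (0.969%), with 93 higher (0.658%) and 44 lower (0.311%) in MOR-LPS. The genes called were those with an adjusted p under 0.05 by edgeR's quasi-likelihood test with Benjamini-Hochberg adjustment over all 22069 genes tested and a term for sex. The higher group held Dnajb2, Lamc3, Fndc4, Trap1 and Rspry1 together with genes of glia, and the lower group held Prkrip1, Parp6, Rbm28, Smad4 and the clock gene Cry2. The median size of the log2 fold change, as a description of the genes called, was 1.19 in the higher group and 0.57 in the lower group. Scaling by library size alone shifted the median of all genes from 0.03 to 0.13 and called 252 genes, 239 higher and 13 lower, so the split between directions moved with the scaling. The single transcript Gm26917 took 1.72% to 12.27% of counts in MOR-LPS (median 3.365%) and 1.87% to 16.31% in SAL-LPS (median 7.613%). Its part in that shift was not tested. The count of 137 itself rested on the setting: it was 4 under the stricter filterByExpr filter on low counts, 1 (Dnajb2) where genes at or over and under 1 CPM had their p-values adjusted apart, 64 without MOR-LPS 15-3 and 2 without the 5 libraries of litter 3 (SAL-LPS 3-1 and 3-3 and SAL-SAL 3-0, 3-2 and 3-4).

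The gene at or over 1 CPM that kept its call most often was Dnajb2, on chromosome 1, a neuron-enriched co-chaperone of the Hsp40 family that brings ubiquitinated clients to the proteasome. Its level was 16.4 at the lowest, 23.6 at the median and 48.9 CPM at the highest in MOR-LPS, against 2.51, 14.7 and 19.8 in SAL-LPS. All 15 MOR-LPS libraries lay above the SAL-LPS median and 12 lay above the highest SAL-LPS library, so the groups overlapped only in the 3 lowest MOR-LPS libraries. The fold change was 1.08 ± 0.19 on the log2 scale (SE, edgeR adjusted p = 0.00793). Without LPS the medians of both exposures were close, 17.7 CPM after morphine and 20.3 after saline. SAL-LPS was thus the lowest of the 4 conditions by median and MOR-LPS the highest. Dnajb2 was called in 23 of 24 alternative settings, all but males alone, and in all 47 fits that left out 1 library or 1 litter.

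Lamc3, which encodes a laminin gamma chain of basement membranes, was the other gene at or over 1 CPM called in all 47 of those fits, and it was called in 20 of 24 alternative settings. It was low, at 0, 1.68 and 21.3 CPM (lowest, median, highest) in MOR-LPS, where 1 library held no read, and at 0, 0 and 1.00 in SAL-LPS, where 8 of 14 held none. The 3 highest levels were in MOR-LPS 12-0 (21.3), 15-1 (11.5) and 16-4 (6.71), and 15-1 and 16-4 are an alike pair. These libraries also had the highest summed thalamic markers of MOR-LPS (591.7, 468.9 and 411.1 CPM, against 244.6 at most in SAL-LPS). Their choroid plexus sums were the highest of MOR-LPS as well (231.3, 74.9 and 54.4 CPM, against 256.2 at most in SAL-LPS). The part of such RNA in the Lamc3 call was not tested. The log2 fold change was 4.54 ± 0.93 (SE, edgeR adjusted p = 0.0199).

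The next higher genes outside glia were Fndc4, Trap1 and Rspry1. Fndc4, which encodes a secreted fibronectin type III protein related to the irisin precursor, had 14.6, 46.4 and 71.9 CPM (lowest, median, highest) in MOR-LPS and 6.74, 24.5 and 61.3 in SAL-LPS, with 14 of 15 MOR-LPS libraries above the SAL-LPS median (log2 fold change 1.07 ± 0.25, edgeR adjusted p = 0.0214). Trap1, the mitochondrial Hsp90 chaperone, had 39.7, 54.8 and 70.4 CPM against 19.1, 39.6 and 53.7, and 10 of 15 MOR-LPS libraries lay above every SAL-LPS library (0.55 ± 0.13, edgeR adjusted p = 0.0218). For Rspry1, a RING and SPRY domain protein, the levels were 37.3, 55.8 and 76.4 CPM against 12.1, 40.4 and 56.9 (0.61 ± 0.14, edgeR adjusted p = 0.0214). In each of these genes the groups overlapped, with the MOR-LPS median above the medians of the other 3 conditions. SAL-LPS 3-3, 5-2 and 11-0 held the 3 lowest levels of the group for Trap1 and Rspry1, and without them the log2 fold changes were 0.40 and 0.43 (edgeR adjusted p = 0.0797 and 0.0680), past the threshold in neither. Fndc4 had 1.02 there (0.0503). Of the 24 alternative settings Fndc4 was called in 16, Trap1 in 14 and Rspry1 in 13.

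A gene chosen after its values were seen, Elk1, encodes a ternary complex transcription factor that works with serum response factor at growth-factor-responsive promoters. Its level was 6.82, 30.9 and 51.2 CPM in MOR-LPS against 7.05, 18.3 and 24.6 in SAL-LPS, and 9 of 15 MOR-LPS libraries lay above every SAL-LPS library (0.82 ± 0.20, edgeR adjusted p = 0.0274). Atg4d, an autophagy protease, and Kctd5, a cullin 3 adaptor, were likewise chosen after their values were seen. Atg4d had medians of 29.5 and 17.6 CPM (0.81 ± 0.20, edgeR adjusted p = 0.0288) and Kctd5 31.3 and 23.8 (0.47 ± 0.14, edgeR adjusted p = 0.0454). Elk1 was called in 14 of 24 alternative settings and in 45 of the 47 fits without 1 library or litter, Atg4d in 16 and 43, and Kctd5 in 9 and 9.

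The promoters of Dnajb2 and Elk1 are shown because Dnajb2 kept its call most often and Elk1 holds a searched motif. Both run from 250 bases before to 50 after an annotated start, for Dnajb2 the first of 2 starts listed, from RefSeq on GRCm38.p6, 5′ to 3′ on the gene's strand. Dnajb2 lies on chr1:75236173-75236472, plus strand, and Elk1 on chrX:20950559-20950858, minus strand. The capitals mark an E-box, CACGTG.
Dnajb2: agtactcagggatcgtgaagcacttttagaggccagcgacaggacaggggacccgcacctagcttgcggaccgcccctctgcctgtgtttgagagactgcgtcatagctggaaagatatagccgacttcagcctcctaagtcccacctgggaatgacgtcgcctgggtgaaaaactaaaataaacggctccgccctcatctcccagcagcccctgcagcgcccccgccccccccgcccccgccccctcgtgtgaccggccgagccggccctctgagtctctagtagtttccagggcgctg
Elk1: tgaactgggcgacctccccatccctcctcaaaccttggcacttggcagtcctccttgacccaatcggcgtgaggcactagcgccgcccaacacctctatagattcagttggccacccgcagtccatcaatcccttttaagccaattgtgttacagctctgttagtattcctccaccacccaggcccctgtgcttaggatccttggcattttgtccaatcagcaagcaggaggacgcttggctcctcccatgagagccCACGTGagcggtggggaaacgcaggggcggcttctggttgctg
Motifs were searched on both strands in the promoters of every listed start, found for 10352 of the 14136 genes at or over 1 CPM. A gene was counted where any of its promoters held the motif. The E-box was in 12 of 71 higher genes with a promoter (16.9%), 3 of 36 lower genes (8.33%) and 11.3% of all. TGACGTCA, the cAMP response element, was in 3 (4.23%), 1 (2.78%) and 3.54%, and TGACTCA, the AP-1 site, in 2 (2.82%), 2 (5.56%) and 4.47%. GGGACTTT, part of the NF-kB site, was in 1 (1.41%), 1 (2.78%) and 1.31%. TTTCACTT, the core of the interferon-stimulated response element, was in 1 (1.41%), 0 and 1.37%, and GCGTGGGCG, bound by early growth response factors, in 1 (1.41%), 0 and 1.42%. A match is a description of the letters and not of binding.

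**Figure D2:**
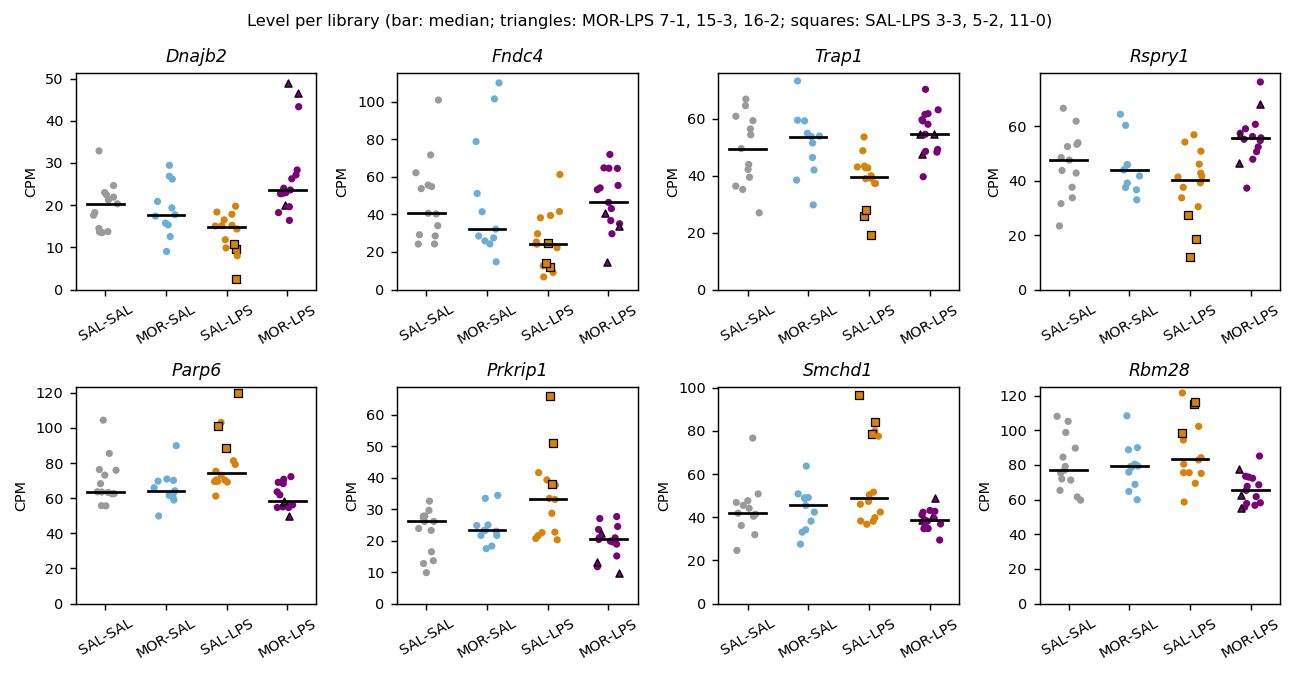
CPM of 4 higher genes (Dnajb2, Fndc4, Trap1, Rspry1) and 4 lower genes (Parp6, Prkrip1, Smchd1, Rbm28) in each hippocampal library by condition. Points are libraries, bars are medians, triangles are MOR-LPS 7-1, 15-3 and 16-2, and squares are SAL-LPS 3-3, 5-2 and 11-0, which lie at the low end of SAL-LPS for Trap1 and Rspry1 and at the high end for Smchd1.

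Of the 12 named higher genes, 6 are known from glia or myeloid cells: Car2, Tspan2 and Ttyh2 in oligodendrocytes, Adgre1 (F4/80) and Runx1 in macrophages and microglia, and Scd2, a fatty acid desaturase of myelinating cells. In Car2, carbonic anhydrase 2, MOR-LPS 7-1 and 15-3 had 161 and 91.8 CPM, the other 13 MOR-LPS libraries had at most 43.2, and SAL-LPS at most 23.4. Adgre1 was at 33.0 CPM in MOR-LPS 15-3 and 7.76 in 16-2, with a MOR-LPS median of 0.564 and a SAL-LPS median of 0.173. Without MOR-LPS 7-1, 15-3 and 16-2 the log2 fold change of Car2 fell from 1.67 to 0.66, that of Tspan2 from 1.49 to 0.52, that of Ttyh2 from 1.95 to 0.67, that of Adgre1 from 3.29 to 1.34 and that of Runx1 from 3.43 to 1.90, and none of these 5 was called (edgeR adjusted p = 0.335 to 0.483). Scd2 went from 0.88 to 0.54 (adjusted p = 0.0891).

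The lists of glial markers moved with the same 3 libraries. All 8 oligodendrocyte markers, all 4 precursor markers, all 7 astrocyte markers tested and 7 of 8 microglial markers had a log2 fold change above 0, with medians of 1.48, 1.45, 0.88 and 1.63, beside a median of 0.03 over all genes tested. Among the called members were Mag (1.54 ± 0.43, edgeR adjusted p = 0.0410), a myelin protein, Gja1 (2.01), the astrocytic connexin 43, and Csf1r (2.36), the receptor that keeps microglia alive. Summed oligodendrocyte markers were 235 to 3436 CPM in MOR-LPS and 209 to 498 in SAL-LPS, precursor markers 1.98 to 164 and 0.629 to 13.4, astrocyte markers 267 to 1504 and 299 to 675, and microglial markers 18.7 to 290 and 4.96 to 41.5. No marker of these 4 lists was at 0 in every library of a group, and the most frequent zeros were Olig2 and Tmem119, each in 6 of 14 SAL-LPS libraries. Without the 3 libraries the medians of these 4 lists were 0.195, 0.195, 0.033 and 0.203, with 0 members called. Mag, Gja1 and Csf1r then had log2 fold changes of 0.45, 0.98 and 1.16, with edgeR adjusted p from 0.194 to 0.669. Mag was called in 8 of 24 alternative settings, Gja1 in 11 and Csf1r in 14, and Mag, Gja1 and Csf1r were not called in litter sums (edgeR adjusted p = 0.0961, 0.0637 and 0.0648). By limma-voom with a correlation within litters Mag was not called (limma-voom adjusted p = 0.282) and Gja1 and Csf1r were (0.0178 and 0.0252). That correlation was estimated at -0.000818, so this setting departed from the reported fit mainly in its method. Among the 29 libraries of this comparison, 1 of the 3 was the highest in 50 of the 93 higher genes. What part glial RNA has in the remaining higher genes was not tested.

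The lower genes were led by Prkrip1 and Parp6. Prkrip1, a spliceosome-associated inhibitor of the kinase PKR, had 9.58, 20.4 and 27.6 CPM (lowest, median, highest) in MOR-LPS and 20.2, 33.2 and 65.9 in SAL-LPS, with all 15 MOR-LPS libraries below the SAL-LPS median and 7 below every SAL-LPS library (log2 fold change -0.79 ± 0.17, edgeR adjusted p = 0.0214). For Parp6, a mono-ADP-ribosyltransferase of neurons, the levels were 49.9, 58.2 and 72.2 CPM against 61.2, 74.2 and 119.7, with 8 of 15 MOR-LPS libraries below all SAL-LPS libraries (-0.41 ± 0.10, edgeR adjusted p = 0.0218). Rbm28, a nucleolar RNA-binding protein, had medians of 65.4 and 83.6 CPM (-0.44 ± 0.11), and Smad4, the shared signal carrier of the TGF-beta and BMP pathways, 49.2 and 64.8 (-0.50 ± 0.13, edgeR adjusted p = 0.0282 and, for Rbm28, 0.0261). The other named lower genes were Strn (-0.74), Smchd1 (-0.57), Snx25 (-0.47), Terf2 (-0.49), Zfp949 (-0.52), Gm16618 (-1.82), Pstpip1 (-2.38) and Cry2 (-0.58). Gm16618 is annotated as an antisense gene, though its exons overlap no exon of another gene in GENCODE M21.

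SAL-LPS 3-3, 5-2 and 11-0 were the source of the highest level in 26 of the 44 lower genes, and in 12 of those genes all 3 lay above every other hippocampal library. In 10 of the 93 higher genes 1 of them was the sole lowest of the 53 libraries. Pstpip1, a cytoskeletal adaptor of immune cells, was at 63.7 to 101 CPM in these 3 and at 12.4 at most in the other 50, and Cry2, a repressor of the circadian clock, at 140 to 188 and at most 89.9. Smchd1, which silences genes on the inactive X chromosome, was at 78.5 to 96.7 in the 3 and at most 80.1 elsewhere. Without them the log2 fold change was -0.35 for Pstpip1 (edgeR adjusted p = 0.750), -0.24 for Cry2 (0.347), -0.36 for Smchd1 (0.145), -0.53 for Prkrip1 (0.0874) and -0.32 for Parp6 (0.0807). Their glial marker sums lay inside the range of the other SAL-LPS libraries for oligodendrocytes and astrocytes, while 1 of the 3 exceeded that range for microglial markers (41.5 CPM against 39.8 at most). Dentate granule cell markers summed to 999 to 1263 CPM in the 3, against a median of 731 and a highest value of 1123 in the other SAL-LPS libraries, and thalamic markers to 156 to 212, against a median of 37.4 and a highest value of 244.6. Mitochondrial transcripts took 0.0863% to 0.142% of their counts, against 0.0983% at most in the others. The part of these in the lower genes was not tested. Their totals of 8975285 to 11473617 counts were within the range of the group.

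**Figure D3:**
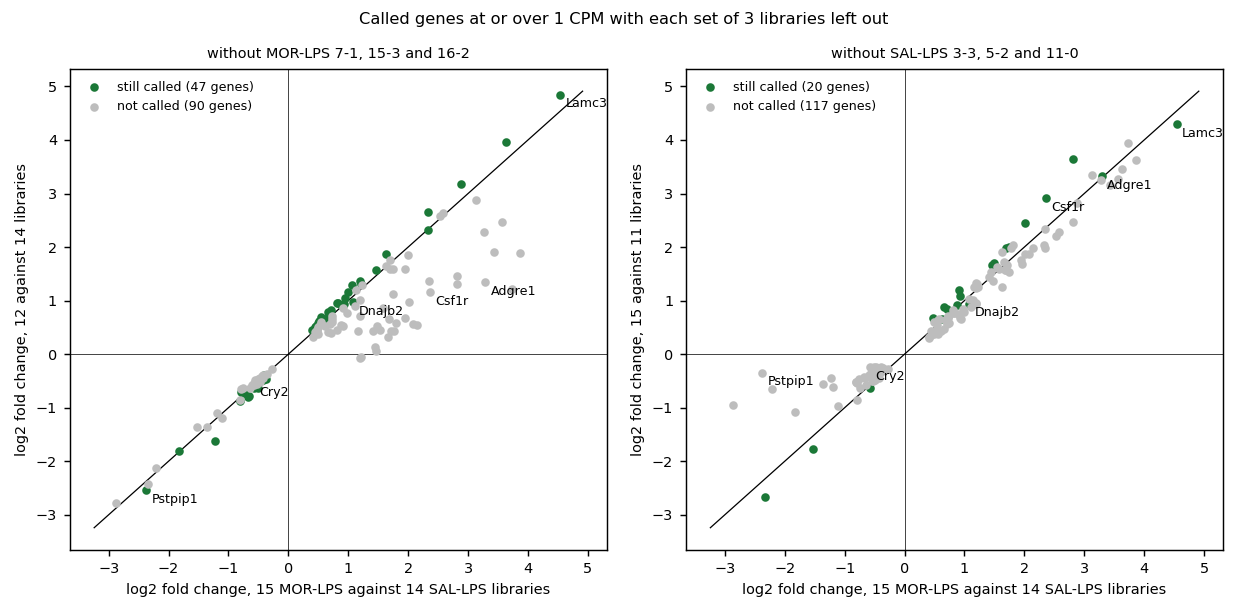
Log2 fold change of the 137 genes called at or over 1 CPM in the full comparison (horizontal axis) and with 3 libraries left out (vertical axis), MOR-LPS 7-1, 15-3 and 16-2 on the left and SAL-LPS 3-3, 5-2 and 11-0 on the right. Each point is a gene, green where still called (47 and 20 genes), and the line marks equal values: higher genes such as Csf1r and Adgre1 drop below it on the left, and lower genes such as Pstpip1 and Cry2 move towards 0 on the right.

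Without the 3 MOR-LPS libraries 75 genes at or over 1 CPM were called, of which 47 were among the 137 (30 higher and 17 lower), and 22 of the 93 higher genes had a log2 fold change under 50% of the full value. Without the 3 SAL-LPS libraries 47 genes were called, 20 of them among the 137 (17 higher and 3 lower), and 8 of the 44 lower genes had a fold change under 50% of the full value. Without both sets 12 were called and 5 of the 137 remained: Dnajb2, Lamc3, Fndc4, Elk1 and Kctd5. In that fit the log2 fold changes of Dnajb2, Lamc3 and Fndc4 were 0.81, 4.61 and 1.28 (edgeR adjusted p = 0.0406, 0.0389 and 0.0355). With alike libraries summed to 1 each, 16 genes were called, Dnajb2, Lamc3, Prkrip1, Parp6 and Csf1r among them. When counts were summed by litter, 2 genes at or over 1 CPM were called, Dnajb2 (log2 fold change 1.20) and Lrrc55 (2.78), an auxiliary subunit of BK channels, both at an adjusted p of 0.0488.

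**Figure D4:**
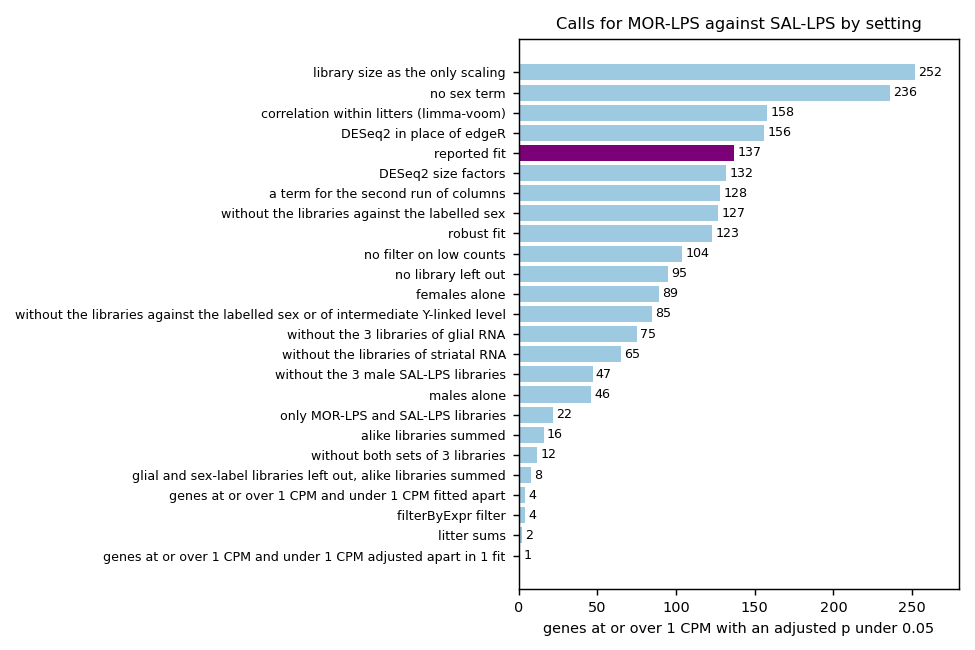
Number of genes at or over 1 CPM called for MOR-LPS against SAL-LPS under each setting. Bars start at 0 and the dark bar is the reported fit, at 137 genes, while the others range from 1 gene, where both expression classes were adjusted apart, to 252, where only library size scaled the counts.

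At baseline, MOR-SAL against SAL-SAL, 0 of 22069 genes were called by edgeR, a share of 0%, and 2268 had an unadjusted p under 0.05. Of the 137 genes at or over 1 CPM, 54 had the same sign at baseline, and the baseline difference taken in the direction of the call had a median of -0.05. The test of the difference between both exposure effects called 515 genes (2.33%), 53 of them at or over 1 CPM (0.375%), 20 higher (0.141%) and 33 lower (0.233%). Dnajb2 was among them, with a difference of 1.18 ± 0.28 log2 units (edgeR adjusted p = 0.0170), and Elk1, chosen after its values were seen, with 1.07 ± 0.30 (0.0385). The count at or over 1 CPM was 15 (8 higher and 7 lower) without the 4 libraries against the labelled sex, 24 (12 and 12) without SAL-LPS 3-3, 5-2 and 11-0, 66 (29 and 37) without MOR-LPS 7-1, 15-3 and 16-2, 21 with alike libraries summed and 26 with no library left out. Of 18 litters 15 held both LPS and saline animals, and with litter as a block in the edgeR fit (a replicate block, added after seeing the data) 0 genes of either class were called, with 1780 at an unadjusted p under 0.05, and Dnajb2 had 1.53 (adjusted p = 0.0778). For Lamc3 the difference was 4.11 (0.0624), for Fndc4 1.18 (0.0692) and for Prkrip1 -0.87 (0.0534), past the threshold in none of them. DESeq2 called 23 genes for this difference and the filterByExpr filter 0, with 1288 at an unadjusted p under 0.05. On simulated counts of known answer the reported test called 208 unchanged genes under 1 CPM and 9 at or over it among 313 calls, so a part of the 515 may be unchanged.

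The effect of LPS within each exposure is set beside these values, and it shares the SAL-LPS or the MOR-LPS libraries with them. LPS against saline called 643 genes in saline-exposed animals (2.91%), 325 higher and 318 lower, and 20 in morphine-exposed animals (0.0906%), 7 higher and 13 lower. Genes at an unadjusted p under 0.05 numbered 4110 and 3172. The groups held 14 and 13 libraries in saline-exposed and 15 and 11 in morphine-exposed animals. These counts are no test of a difference between the exposures. With litter as a block the counts of called genes were 61 and 1. Without SAL-LPS 3-3, 5-2 and 11-0 they were 249 and 10, without MOR-LPS 7-1, 15-3 and 16-2 547 and 0, and without both sets 187 and 0, the latter with 2863 genes at an unadjusted p under 0.05 (2878 without the MOR-LPS set alone). In saline-exposed animals the log2 change with LPS was -0.61 for Dnajb2 (edgeR adjusted p = 0.0631), -1.03 for Fndc4 (0.0279), -0.72 for Elk1 (0.0431), 0.55 for Cry2 (0.0410) and 0.57 for Prkrip1 (0.0620). In morphine-exposed animals the same genes had 0.57 (adjusted p = 0.151), 0.15 (0.898), 0.35 (0.504), -0.06 (0.948) and -0.29 (0.515). Without SAL-LPS 3-3, 5-2 and 11-0 none of the 5 was called in saline-exposed animals, with -0.99 for Fndc4 (0.0551), -0.68 for Elk1 (0.0926) and 0.22 for Cry2 (0.422).

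The exposure difference after LPS was called as differing between the labelled sexes at 487 genes (2.21%). Of these, 234 were at or over 1 CPM (1.66%), 142 with a larger value in females (1%) and 92 in males (0.651%). At 226 of the 234 the sign was opposite in each sex, which choosing genes by this same difference favours, so it is no further result. Each MOR-LPS litter, and each SAL-LPS litter but litter 3, held libraries of 1 labelled sex. Sex thus cannot be told apart from differences between litters here. Pstpip1 had medians of 4.97 CPM in female and 1.76 in male MOR-LPS libraries, and of 4.00 in female and 35.7 in male SAL-LPS libraries, a female minus male difference of 4.52 log2 units (edgeR adjusted p = 0.00735). Csf1r had 7.55 and 4.51 CPM in MOR-LPS and 1.33 and 4.64 in SAL-LPS (4.07, adjusted p = 0.0208). In Matn2, a matrix protein chosen after its values were seen, the lowest male MOR-LPS level was 91.5 CPM, above the highest male SAL-LPS level of 70.9, and the medians had the opposite order in females (64.9 and 103). The labelled sex was used, and without the libraries whose Y-linked genes went against it the count was 380. Without SAL-LPS 3-3, 5-2 and 11-0 the count was 14, 7 of them at or over 1 CPM, and 6 of the 234 genes remained, Matn2 (-1.56, adjusted p = 0.0460) among them. Without MOR-LPS 7-1, 15-3 and 16-2 it was 223, with 87 of the 234 genes. Dnajb2 did not pass this test (0.04 ± 0.38, adjusted p = 0.911).

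The same animals gave striatum and prefrontal cortex. Over 13 MOR-LPS and 12 SAL-LPS animals with both libraries, 0 of 13673 genes (0%) had an exposure difference that differed between hippocampus and striatum by limma, with 850 at an unadjusted p under 0.05. Over 11 and 7 animals, 0 of 13703 genes (0%) differed from the prefrontal cortex, with 775. Lamc3 had a log2 fold change of 2.88 in hippocampus and -0.48 in striatum (difference 3.36 ± 0.73, limma adjusted p = 0.262), and Dnajb2 had 0.99 in hippocampus and -0.62 in prefrontal cortex (1.61 ± 0.39, limma adjusted p = 0.486). Of the genes called at or over 1 CPM in hippocampus, 102 of 136 tested had the same sign in striatum (75%), beside 62.6% of all genes tested. In prefrontal cortex 94 of 134 had it (70.1%), beside 54.3%. By limma 0 of them were called in either region. The share of all genes called there is not given here, so this is no result about them. The libraries of these regions came from the same animals. In striatum Dnajb2 had 0.49 and Csf1r 1.35, neither of them called there. Without the 3 libraries of high glial markers 1 gene differed from the striatum, B530045E10Rik (2.80 ± 0.40, limma adjusted p = 0.00636), and without SAL-LPS 3-3, 5-2 and 11-0 another, 1700003M02Rik (-3.81 ± 0.61, limma adjusted p = 0.0352), each named because it was the sole call. Without both sets 0 genes differed from the striatum by limma, with 1069 at an unadjusted p under 0.05.

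Gene lists that fit the treatment were described by counts and medians. Their counts are read beside 2.75% called of all genes tested and 0.969% of those at or over 1 CPM, so that 0 or 1 call in a list of this size is near the background. None of the 20 immediate early genes was called, with a median log2 fold change of 0.06 (Fos 0.76, Junb 0.96, Npas4 -0.61), and none of the 19 tested genes of NF-kB signalling and acute inflammation, with a median of 0.26 (Nfkbia 0.43, Stat3 -0.53, Ptgs2 0.52). Of 16 genes induced by glucocorticoids, Tsc22d3 (GILZ), an anti-inflammatory mediator of the hormone, was called, at 7.56, 18.9 and 55.0 CPM in MOR-LPS against 5.13, 10.8 and 21.3 in SAL-LPS (0.98 ± 0.25, edgeR adjusted p = 0.0314), and its highest level was in MOR-LPS 15-3. All 16 cytokine and pattern recognition receptors had a log2 fold change above 0, with a median of 0.44, and 1 was called, Il6st, which encodes gp130, the signalling chain of the interleukin 6 family (0.49 ± 0.14, edgeR adjusted p = 0.0444). The call of Il6st held in 5 of 24 alternative settings and in 7 of 47 fits without 1 library or litter, and that of Tsc22d3 in 13 and 41. Without the 3 libraries of high glial markers the median of the receptors was 0.32 with 0 called, and Tsc22d3 was at 0.77 (adjusted p = 0.0948). Of 22 interferon response and antigen presentation genes, Mx1 and Gbp3 were called, with a median of 0.67 over the list and 0.35 without those libraries. Both are under 1 CPM, where 5.92% of genes were called. Neither was called by limma-voom with a correlation within litters, estimated at -0.000818 (limma-voom adjusted p = 0.159 and 0.0789). In litter sums neither was called (edgeR adjusted p = 0.0879 and 0.114).

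Genes of neuronal signalling and metabolism had medians near that of all genes. No member was called among 8 opioid receptors and precursors, 15 ionotropic glutamate receptor subunits, 12 GABA-A receptor subunits, 23 voltage-gated channels, 25 subunits of oxidative phosphorylation, 26 enzymes of glycolysis and the TCA cycle, 25 ribosomal proteins, 17 chaperones or 24 genes of histone acetylation, and their medians ran from -0.12 to 0.11. The chaperone list held neither Dnajb2 nor Trap1, which were both called. With 0.969% of genes at or over 1 CPM called, few calls would fall in these lists by that share alone, so their absence is no result about them. The mu receptor gene Oprm1 had a log2 fold change of 0.01 ± 0.34 and the opioid precursor genes Penk and Pdyn -1.75 ± 0.64 and -0.85 ± 0.37 (edgeR adjusted p = 0.112 and 0.193). Penk and Pdyn are also expressed in striatal neurons. The 6 striatal markers had a median of -1.70 after LPS and at baseline, all of them at an unadjusted p under 0.05 after LPS and 0 called, and without the libraries rich in them the median of the opioid list was 0.23. Their part in the Penk value was not tested. Of 16 clock genes only Cry2 was called. By limma-voom with a correlation within litters, estimated at -0.000818, Cry2 was not called (limma-voom adjusted p = 0.0616). Nor was it called in litter sums (edgeR adjusted p = 0.0648) or without SAL-LPS 3-3, 5-2 and 11-0 (edgeR adjusted p = 0.347). Neuronal subtype markers had medians of 0.23 (dentate granule cells), 0.08 (CA1), 0.21 (CA2 and CA3) and -0.31 (interneurons), with 0 called. Without SAL-LPS 3-3, 5-2 and 11-0 these medians were 0.80, -0.18, 0.21 and -0.48, also with 0 called.

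**Figure D5:**
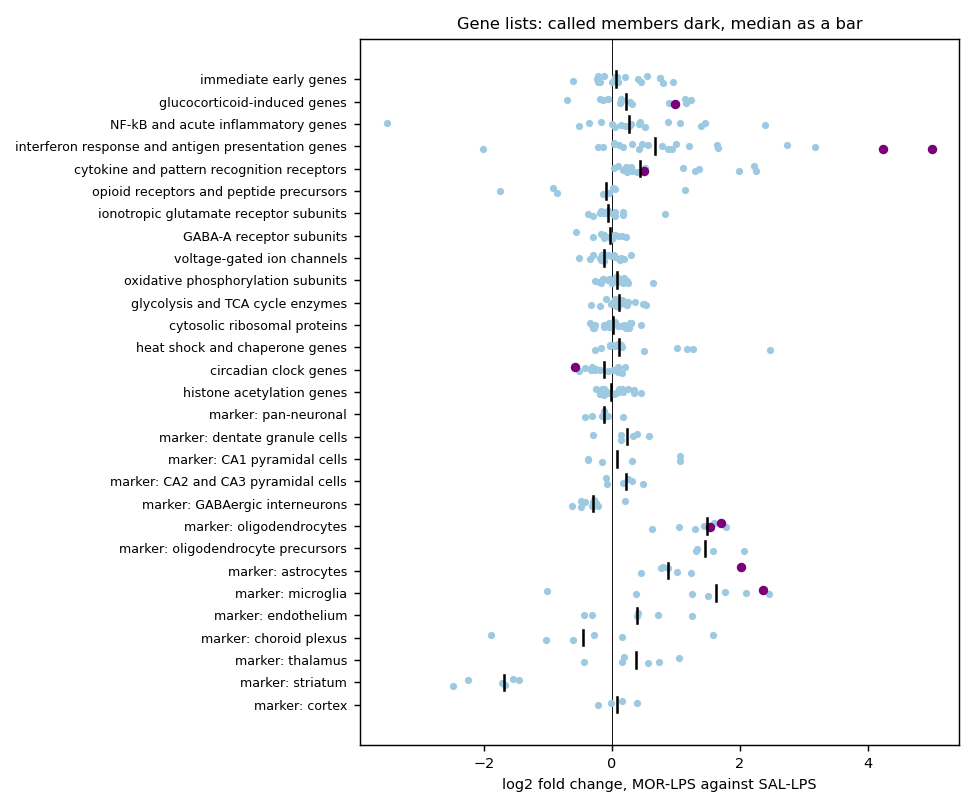
Log2 fold change of MOR-LPS against SAL-LPS for the tested members of each gene list (points), with the list's median as a bar and called members dark. Glial marker lists sit to the right of 0, with medians of 0.88 to 1.63, striatal markers to the left, at -1.70, and neuronal signalling and metabolic lists around 0.

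Genes with a mean under 1 CPM gave more calls than genes above it: 470 of 7933 (5.92%), 309 higher (3.9%) and 161 lower (2.03%). On simulated counts of known answer the same fit called 105 unchanged genes under 1 CPM among 239 calls, so a part of the 470 may be unchanged. At 467 of the 470 most libraries of at least 1 group held no read, and the median of their mean levels was 0.0883 CPM, below the 0.125 to 0.647 CPM that 3 counts make in a single library (both as CPM without TMM factors, the scale of the split at 1 CPM). Rlbp1, a retinaldehyde-binding protein of glia, had reads in 12 of 15 MOR-LPS and 1 of 14 SAL-LPS libraries (median 1.58 and 0 CPM, edgeR adjusted p = 0.00793). Tbx18, a T-box factor of mural cells, and Gpr65, a proton-sensing receptor of immune cells, each had reads in 7 of 15 MOR-LPS libraries and none in SAL-LPS, with the highest level, 6.35 and 5.08 CPM, in MOR-LPS 15-3 in both. Mx1, an interferon-induced GTPase, had reads in 5 MOR-LPS libraries, at 1.88 CPM at most, and none in SAL-LPS. Gbp3, an interferon-induced guanylate-binding protein, had reads in 7 of 15 and 1 of 14.

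In the other direction, Gm15382, a processed pseudogene whose reads can belong to its parent gene, had reads in 9 of 14 SAL-LPS libraries, at 4.10 CPM at most, and in no MOR-LPS library. AC139294.1 and Slc39a4, a zinc importer, had reads in 6 and 5 SAL-LPS libraries and no MOR-LPS library. No fold is given for genes without reads in a whole group, since the fitted value depends on the prior count. Under other settings the count of low genes ran from 0 in males alone to 1442 where genes under and over 1 CPM were fitted apart. It was 39 by DESeq2 and 3 under filterByExpr. Tbx18, Gpr65 and the higher gene Cyb561a3 overlap exons of a gene on the other strand over 20.6%, 24.7% and 20.1% of their exonic length, and whether the counting used strand is not stated in the sources used here, so reads from both strands cannot be told apart.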

How the data were processed

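The deposited hippocampal table holds raw counts per gene and library, one column per animal. The authors trimmed reads with Trim Galore 0.6.7, aligned them to mm10 with STAR 2.7.10a and counted genes of GENCODE vM25, with HTSeq 0.12.4 also named, and used DESeq2 1.40.2 with terms for sex and condition. Here, genes with a total count over 10 across the 53 hippocampal libraries used (22069 of 46403) were fitted with edgeR 4.0.16 (TMM, quasi-likelihood test, R 4.3.3) with the same terms, and p-values were adjusted by Benjamini-Hochberg, with calls at 0.05. The model was fitted to all 4 conditions, and genes were split at a mean of 1 CPM, taken without TMM factors. Region differences used limma 3.58.1 on the within-animal difference of log2 CPM. DESeq2 1.42.0, other filters, scalings, litter models and leave-outs were alternatives. Named genes were, by rule, the 12 higher and 12 lower genes at or over 1 CPM and the 3 in each direction under it with the smallest adjusted p, and, of each list, called members and the 2 with the highest level, of which not every one is reported here. The members and lists were chosen with earlier results of these data known. The fit was tested on simulated counts with known answers, where it also called unchanged genes, most of them under 1 CPM. For MOR-LPS against SAL-LPS, 105 unchanged genes under 1 CPM and 3 at or over it were among 239 calls. For the difference from baseline these were 208 and 9 among 313, and for the sex difference 11 and 2 among 71. Of 100 genes changed 2-fold, 57, 34 and 12 were recovered, in the same order. Depth limits precision as counting error only, and no molecular identifiers were used here. Positions come from GENCODE M21 on GRCm38.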

Additional observations from a re-analysis of the deposited data

Results flagged for a closer look

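Differences of the exposure effect between conditions were tested as a term of the edgeR fit. Genes at or over 1 CPM called for a difference between the exposure effects after LPS and at baseline numbered 53. Those called for a difference between females and males after LPS numbered 234, where sex cannot be told apart from litter. Of the genes named by rule, the difference from baseline in log2 units (after LPS minus baseline, edgeR adjusted p) was 1.18 for Dnajb2 (0.0170), 1.97 for Cyb561a3 (0.0267), 2.81 for Csf1r (0.0396), -2.76 for Pstpip1 (0.0371), -0.67 for Terf2 (0.0381) and -0.91 for Zfp949 (0.0151). Elk1, chosen after its values were seen, had 1.07 (0.0385). Under 1 CPM the difference was 6.15 for Rlbp1 (0.0151), which had reads in 1 SAL-LPS library. A further 6 named genes under 1 CPM passed the test, Tbx18, Gpr65, Mx1, Gm15382, AC139294.1 and Slc39a4, and since each had a condition without reads their fitted values are no measure of size and are not given. Without MOR-LPS 7-1, 15-3 and 16-2 the difference of Csf1r was 1.54 (edgeR adjusted p = 0.327), and without SAL-LPS 3-3, 5-2 and 11-0 that of Pstpip1 was -0.64 (0.762). With litter as a block none of the genes named here passed (edgeR adjusted p from 0.0778 for Dnajb2 up). Between the sexes (female minus male) it was 4.52 for Pstpip1 (0.00735), 1.38 for Scd2 (0.0398) and 4.07 for Csf1r (0.0208). Without SAL-LPS 3-3, 5-2 and 11-0 these sex differences were 1.22, 1.48 and 3.57, with edgeR adjusted p = 0.629, 0.132 and 0.132. Without MOR-LPS 7-1, 15-3 and 16-2, all female, they were 4.56, 0.92 and 2.03, with edgeR adjusted p = 0.0134, 0.150 and 0.252. The groups held over 10 libraries each, and no search for single outlying samples was made.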

How the results depend on the processing

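The count of called genes depended strongly on the processing. No paired analysis was possible for MOR-LPS against SAL-LPS because these groups share fewer than 2 replicate numbers and no litter. The difference from baseline had 0 calls with litter as a replicate block, against 515. Settings named as leaving out or summing doubted libraries, and the separate adjustment, were chosen after seeing the data. In what follows the pairs of counts are genes at or over 1 CPM and under 1 CPM, against 137 and 470 in the report. They were 4 and 3 under filterByExpr (Dnajb2, Lamc3, Parp6 and Prkrip1, and Rlbp1, Gm15382 and Zic2), 4 and 1442 with both classes fitted apart (the same 4 genes), 1 and 1019 with both classes adjusted apart in 1 fit (Dnajb2), and 2 and 1 for litter sums (Gm15382 under 1 CPM). They were 22 and 37 with only the LPS groups in the fit, 236 and 1140 without the sex term, 89 and 23 in females alone, and 46 and 0 in males alone, where 3620 genes of both classes had an unadjusted p under 0.05. Leaving out the 3 MOR-LPS libraries of high glial markers gave 75 and 286, leaving out the 3 male SAL-LPS libraries 47 and 135, and both 12 and 65. Leaving out the libraries against the labelled sex or of intermediate Y-linked level gave 85 and 257, leaving out those of striatal RNA 65 and 97, summing alike libraries 16 and 90, and combining the glial and sex-label leave-outs with summing 8 and 18. At or over 1 CPM library size alone gave 252. Under 1 CPM DESeq2, which gave no adjusted p for 3936 genes, called 39, and limma-voom with a correlation within litters 85. Fits without 1 library or 1 litter gave 2 to 179 and 17 to 515 calls. Single libraries gave 64 (without MOR-LPS 15-3) to 179 (without MOR-LPS 12-0) at or over 1 CPM, and leaving out the 5 libraries of litter 3 (SAL-LPS 3-1 and 3-3 and 3 of SAL-SAL) left 2 and 17. The difference from baseline was called at 23 genes by DESeq2, 0 under filterByExpr (1288 at an unadjusted p under 0.05) and 298 without both sets of 3, against 515. The difference between sexes was called at 129 under filterByExpr, 223 and 14 without each set of 3, 14 without both and 33 with alike libraries summed, against 487. It was called at 531 with no library left out and at 482 by DESeq2, where 429 were at or over 1 CPM, against 234. The region difference with the striatum gave 1 without the glial libraries and 1 without the 3 male SAL-LPS libraries, against 0. These alternatives were run gene by gene for the 38 called genes that the naming rule gives, of which only Pstpip1 turned direction, at 0.14 in females alone. For the results that changed, the cause was not tested. Litters, alike libraries and the 3 counts that set the floor per library limit what the counts of genes under 1 CPM can show.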
